A study of Mus musculus with 6 samples.

Results

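Lung capillaries are lined by endothelial cells of several kinds, and 10 genes that mark or regulate these cells were followed here in the lungs of mice with endotoxaemia. The genes were Gpihbp1 and Plvap (general capillary cells), Car4, Ednrb and Tbx2 (aerocytes), Calcrl and Ramp2 (the adrenomedullin receptor), Sox17 and Erg (transcription factors of the endothelium) and Nos3 (endothelial nitric oxide synthase). They were listed by name, as markers and regulators of capillary endothelium, at a time when earlier results of these data were known. All 10 could be measured, out of 16370 genes tested and 22815 genes with a named probe left on the array. Each gene was read from 1 probe, the brightest of its probes over the 6 arrays, and 14 probes in all matched the 10 genes.

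As background, the alveolar capillary bed is a mosaic of general capillary cells, which can divide and give rise to other capillary cells, and aerocytes, which are large, thin cells spread over the gas exchange surface. Gpihbp1 carries lipoprotein lipase to the capillary lumen, Plvap forms the diaphragms of caveolae and fenestrae, and Car4 is a membrane-bound carbonic anhydrase that helps to release carbon dioxide. Adrenomedullin acts through Calcrl, which needs a partner such as Ramp2 at the cell surface, and its signal tightens the endothelial barrier. Erg and Sox17 maintain endothelial identity, and Nos3 makes the nitric oxide that relaxes vessels.

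All 6 mice were male C57BL6 animals of 10 weeks, went without food for 16 h and then received an i.p. injection of LPS at 20 mg/kg. The 3 saline-treated mice then received saline 3 h and 24 h after LPS, and the 3 rhTM-treated mice received recombinant human thrombomodulin (rhTM), a soluble form of an anticoagulant receptor of the endothelium, at the same times. Lungs were taken 30 h after LPS, and 1 Agilent array, read in 1 colour, was run per mouse. No lung without LPS was on these arrays, so the values compare rhTM with saline after LPS and say nothing of the change from a healthy lung.

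Expression is given as log2 of the processed signal divided by the 75th percentile of its array, so that 0 stands for the signal at that percentile and a difference of 1 stands for a doubling. Between 36252 and 40828 of 56605 probes were well above background on an array, among them all 25 measured pan-endothelial genes besides the 10 and all 8 markers of type 2 alveolar cells on every array. The probes that stand for the 10 genes were well above background on all 6 arrays and never saturated. Whole lung was measured, so fewer endothelial cells and less RNA per endothelial cell cannot be told apart. The arrays have a conflict of labels. In the table of processed values that the authors deposited beside the scanner output, 2 columns are exchanged. That named for saline replicate 1 holds what the scanner file of rhTM replicate 2 holds, and the other way round (equal within 0.1% for 99.82% and 99.85% of probes). Neither the labels nor the methods settle which is right, so the scanner output is given first and the table beside it. rhTM replicate 1, which the exchange does not touch, stood apart, with correlations over all genes of 0.979 to 0.988 with the other arrays, against 0.985 to 0.995 among the other 5.

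None of the 10 capillary genes differed between rhTM-treated and saline-treated lungs by limma after adjustment over all genes tested (adjusted p = 0.9999 for each by the scanner output). Of all genes tested, 0% passed, and 306 of 16370 (1.87%) were past an unadjusted 0.05, Ednrb alone among the 10. With 1 array left out in turn these counts ran from 207 to 1379 of the 16370 genes and from 0 to 3 of the 10, both highest without rhTM replicate 2. The means of 5 of the 10 genes were higher with rhTM and those of 5 were lower, where 50.7% of all genes had a higher mean. The median log2 difference of the 10 was -0.03, and that of all genes was 0.0026. In 1 of the 10, Ednrb, all rhTM values lay above all saline values, which held for 2.95% of all genes. In 0 of the 10 did all rhTM values lie below, which held for 2.57%. By the methods' t-test, 0 of the 10 passed a fold of 2 with p under 0.01 (0.00611% of all genes did), and 0 were under 0.05 without adjustment (2.08% of all genes). The 95% intervals below show how large a difference these 3 against 3 arrays leave possible.

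**Figure D1:**
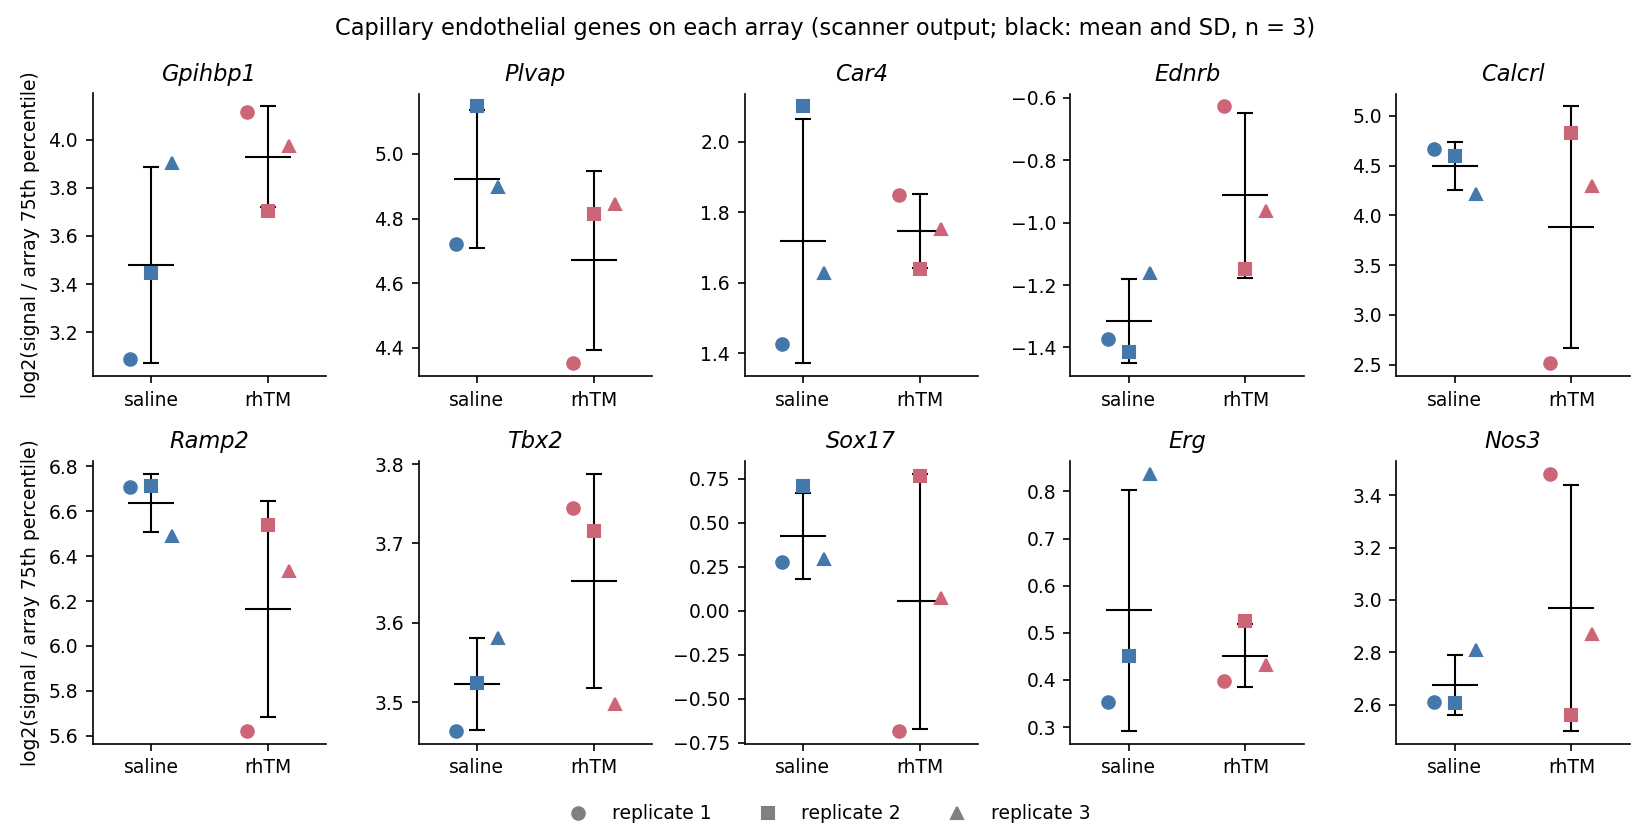
Level of each capillary gene on each array, as log2 of the signal over the array's 75th percentile (y axis, a separate scale for each gene), for saline-treated and rhTM-treated lungs. Symbols mark the replicate number, and black bars the mean and SD (n = 3). The rhTM replicate 1 circle is the lowest of the 6 values for Plvap, Calcrl, Ramp2 and Sox17 and the highest for Gpihbp1, Ednrb, Tbx2 and Nos3.

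Gpihbp1, the endothelial anchor of lipoprotein lipase, measured 3.09, 3.45 and 3.90 in saline replicates 1 to 3 and 4.11, 3.70 and 3.97 in rhTM replicates 1 to 3. The 2 lowest values were of saline-treated lungs, but saline replicate 3 lay above rhTM replicate 2, so the groups overlapped. The mean was 3.48 ± 0.41 (SD, n = 3) with saline and 3.93 ± 0.21 (SD, n = 3) with rhTM, a log2 difference of 0.45 (95% interval -0.09 to 0.99, exact two-sided permutation p = 0.2, limma adjusted p = 0.9999). In the authors' table the difference was 0.04 (95% interval -0.64 to 0.72), because the lowest Gpihbp1 value, 3.09, then belongs to an rhTM-treated lung.

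Plvap, the diaphragm protein of general capillary cells, measured 4.72, 5.15 and 4.90 with saline and 4.35, 4.81 and 4.84 with rhTM. The lowest value was that of rhTM replicate 1, while the other rhTM values lay between those of saline replicates 1 and 3. The log2 difference was -0.25 (95% interval -0.70 to 0.19, exact two-sided permutation p = 0.4), and -0.31 by the authors' table.

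The other genes of the lipoprotein lipase axis stood near the middle of all genes. Of 10 measured, 6 had higher means with rhTM and none passed the test, with a median log2 difference of 0.07. Lpl itself, the enzyme that Gpihbp1 binds, ranged from 5.13 to 5.39 with saline and from 5.26 to 5.33 with rhTM. Fabp4, a fatty acid binding protein of capillaries, had the highest difference of the axis at 0.30, and Cd36, a fatty acid receptor, the lowest at -0.21. Of 10 other general capillary markers, 6 had higher means, with a median of 0.07. They ran from -0.75 for Hpgd, which breaks down prostaglandins, to 0.31 for Ptprb, a phosphatase that restrains Tie2. Kit, a receptor tyrosine kinase picked out here after its values were seen, measured 2.29, 2.40 and 2.55 with saline and 2.74, 2.60 and 2.67 with rhTM, without overlap. Its log2 difference was 0.25, or 0.047 with overlap by the authors' table.

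Ednrb, the endothelin B receptor, which clears endothelin and signals the release of nitric oxide, was the 1 gene of the 10 whose groups did not overlap. The groups did not overlap for 8 of the 174 other list genes either, and for 904 of all 16370 genes. Ednrb measured -1.37, -1.41 and -1.16 with saline and -0.63, -1.15 and -0.96 with rhTM. The gap between the groups was narrow, since saline replicate 3 and rhTM replicate 2 lay at -1.16 and -1.15. The mean was -1.32 ± 0.14 (SD, n = 3) with saline and -0.91 ± 0.26 (SD, n = 3) with rhTM, a log2 difference of 0.40 or 1.32-fold (limma 95% interval 0.0044 to 0.80). Its exact two-sided permutation p was 0.1, the smallest that 3 against 3 arrays can give. The limma fit over all genes gave an unadjusted p = 0.048 and an adjusted p = 0.9999. With the slide that held each array as a block, limma gave an unadjusted p = 0.058 and an adjusted p = 0.92.

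The separation of Ednrb rested on the assignment of the arrays and on the scaling. With the table's assignment the difference was 0.25 (95% interval -0.23 to 0.73) and the groups overlapped, since the value of -1.37 then belongs to rhTM and that of -1.15 to saline. Without rhTM replicate 1 the difference was 0.26, or 0.073 from the table. The groups also overlapped without scaling, and with the 75th percentile taken over probes above background on all arrays. A second Ednrb probe gave -2.07, -2.94 and -2.75 with saline and -2.05, -2.99 and -1.87 with rhTM, a log2 difference of 0.28 with overlapping groups. In the table this probe differed by 0.90 without overlap. Another Ednrb probe was well above background on 1 of the 6 arrays, and its difference was not read.

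Around Ednrb, the endothelin and nitric oxide list held 16 measured genes, of which 12 had higher means with rhTM and none passed the test (median log2 difference 0.03). Edn1, the ligand endothelin 1, measured 2.11, 2.22 and 2.61 with saline and 3.25, 2.31 and 2.38 with rhTM, the highest difference of the list at 0.33. That difference came from rhTM replicate 1, since both other rhTM values lay within the saline range. Cav1, the caveolin that binds Nos3 and that type 1 alveolar cells also express, had the lowest at -0.67.

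The promoters of Ednrb and Calcrl are shown because these genes took opposite sides on rhTM replicate 1, which was the highest array for Ednrb and the lowest for Calcrl. The pair was chosen after the values were seen, and no link between promoter letters and these values was tested. RefSeq windows of GRCm38.p6, 250 bases before to 50 bases after the start of the gene, were given for 4 of the 10 genes (Calcrl, Car4, Ednrb and Erg). They were searched on both strands for AGGAAG (ETS family, as Erg), ACAATG (SOX family, as Sox17) and AGGTGT (T-box family, as Tbx2), none of which overlapped another, and matches are in capitals. The Ednrb window lies at chr14:103843652-103843951 and the Calcrl window at chr2:84425217-84425516, both on the minus strand and printed 5′ to 3′ along the gene.
Ednrb: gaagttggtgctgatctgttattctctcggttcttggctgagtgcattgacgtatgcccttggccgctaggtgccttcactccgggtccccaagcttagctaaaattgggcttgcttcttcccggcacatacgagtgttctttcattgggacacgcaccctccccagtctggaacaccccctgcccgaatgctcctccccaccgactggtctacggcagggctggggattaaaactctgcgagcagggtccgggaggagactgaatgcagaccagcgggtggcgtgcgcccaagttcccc
Calcrl: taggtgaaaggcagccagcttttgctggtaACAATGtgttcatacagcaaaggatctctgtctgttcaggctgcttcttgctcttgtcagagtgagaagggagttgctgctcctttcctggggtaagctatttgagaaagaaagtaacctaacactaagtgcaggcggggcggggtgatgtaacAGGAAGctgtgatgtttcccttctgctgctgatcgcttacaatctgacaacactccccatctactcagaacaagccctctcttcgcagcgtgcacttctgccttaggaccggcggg

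The Calcrl window held AGGAAG, starting 66 bases before the gene's start, and ACAATG, starting 220 bases before it, and the Ednrb window held none of the 3. The Car4 window at chr11:84957504-84957803 held none either. Of 3 Erg windows, that at chr16:95459299-95459598 held 1 match of each motif and the other 2 held none. Of all 32851 windows in the table, 35.4% held AGGAAG, 12.6% held ACAATG, 13.7% held AGGTGT and 50.9% at least one of them, so matches such as these are common, and they describe letters only.

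Car4 measured 1.43, 2.10 and 1.63 with saline and 1.85, 1.64 and 1.75 with rhTM. All 3 rhTM values lay within the saline range. The log2 difference was 0.03 (95% interval -0.43 to 0.48, exact two-sided permutation p = 0.9), and by the authors' table it turned to -0.11 (95% interval -0.54 to 0.32). Among 8 other carbonic anhydrases measured, 4 had higher means, from -0.71 for Car3 to 0.16 for Car13.

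Tbx2, a T-box repressor found in aerocytes, had the smallest range of the 10 genes. It measured 3.46, 3.52 and 3.58 with saline and 3.74, 3.72 and 3.50 with rhTM, so that 2 of the 3 rhTM values lay above the saline range and rhTM replicate 3 within it. The log2 difference was 0.13 (95% interval -0.16 to 0.42, exact two-sided permutation p = 0.3), and by the authors' table it turned to -0.04. Of 9 other aerocyte markers, 4 had higher means (median -0.01), from -0.26 for Kitl, the ligand of Kit, to 0.19 for Kdr, the main receptor of vascular endothelial growth factor, which was -0.0075 in the table.

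Calcrl showed the widest spread of the 10 genes. It measured 4.67, 4.60 and 4.22 in the saline-treated lungs and 2.51, 4.83 and 4.30 in the rhTM-treated lungs. rhTM replicate 1 lay far below the other arrays, 4.03-fold below their mean, while rhTM replicate 2 was the highest of the 6. The group difference was -0.61 (95% interval -1.95 to 0.72, exact two-sided permutation p = 0.7), and -0.72 by the authors' table. Leaving out rhTM replicate 1 gave 0.07 from the scanner output and -0.06 from the table.

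Ramp2, which turns Calcrl into an adrenomedullin receptor, was lowest on the same array. It measured 6.71, 6.71 and 6.49 with saline and 5.62, 6.54 and 6.33 with rhTM. rhTM replicate 1 lay 1.91-fold below the mean of the other 5, and rhTM replicate 2 lay within the saline range. The difference was -0.47 (95% interval -1.05 to 0.11, exact two-sided permutation p = 0.2), and -0.36 by the authors' table. Without rhTM replicate 1 these were -0.20 and -0.058. A second Ramp2 probe gave -0.60 with the same array lowest at 2.68, against 3.46 to 4.10 on the others.

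The alternative partner of Calcrl, Ramp3, went the other way on the same array. Ramp3 measured 0.95, 0.46 and 1.45 with saline and 3.75, 0.48 and 1.48 with rhTM. rhTM replicate 1 was 6.88-fold above the mean of the other 5 arrays, and both other rhTM values lay close to the saline range or within it. The log2 difference of Ramp3 was 0.95 (limma adjusted p = 0.9999), the highest of 7 measured genes of calcitonin gene-related peptide and adrenomedullin signalling. Adm, which encodes adrenomedullin, had the lowest at -0.29, and the median of the 7 was 0.10.

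Sox17 measured 0.28, 0.71 and 0.29 with saline and -0.68, 0.77 and 0.07 with rhTM. The rhTM-treated lungs held both the lowest and the highest value. The log2 difference was -0.37 (95% interval -1.22 to 0.47, exact two-sided permutation p = 0.5), and without rhTM replicate 1 it was -0.0060, or -0.42 from the table. From the table, all 3 rhTM values lay below all saline values, with a difference of -0.70 (95% interval -1.35 to -0.05, exact two-sided permutation p = 0.1, limma adjusted p = 0.34). A second, dimmer Sox17 probe gave -0.54, or -0.40 from the table, with overlapping groups in either case.

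Erg, an ETS factor of all endothelial cells, measured 0.35, 0.45 and 0.84 with saline and 0.40, 0.53 and 0.43 with rhTM. Saline replicate 3 was the highest, and the other 5 arrays lay between 0.35 and 0.53. The log2 difference was -0.10 (95% interval -0.47 to 0.28, exact two-sided permutation p = 0.8). With the table's assignment it was -0.21 without overlap, with the highest rhTM value at 0.43 and the lowest saline value at 0.45. Among 11 other ETS, SOXF and T-box factors, 7 had higher means (median 0.03). They ran from -0.55 for Sox18, a relative of Sox17 that was 2.77-fold below the other arrays on rhTM replicate 1, to 0.24 for Etv6.

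Nos3 measured 2.61, 2.61 and 2.81 with saline and 3.48, 2.56 and 2.87 with rhTM. rhTM replicate 1 was the highest, 1.73-fold above the mean of the other 5, and rhTM replicate 2 the lowest. The log2 difference was 0.29 (95% interval -0.27 to 0.86, exact two-sided permutation p = 0.4), 0.33 by the authors' table, and 0.04 and 0.082 in the same order without rhTM replicate 1.

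In most of the capillary genes rhTM replicate 1 marked one end of the range. It gave the lowest value for 4 of the 10 genes and the highest for 4 others, 8 of 10 in all. Over all 16370 genes it was lowest or highest for 56.4% (lowest for 26.6%, highest for 29.8%). Among 25 other pan-endothelial genes it was the lowest for 12 and the highest for 3. The summed signals of marker lists on this array were the highest of the 6 for neutrophils (8 genes, 1172 times the 75th percentile, against 905 to 1066 with saline), platelets (5 genes, 27.0 against 10.0 to 14.5) and erythroid cells (4 genes, 875 against 600.5 to 783). The summed signal of the 10 capillary genes was the lowest (123, against 179 to 201 with saline and 170 and 188 on the other rhTM arrays), a sum carried by bright genes such as Ramp2, at 49.3 on this array. The median of the 10 genes, each centred on its own mean, was 0.0073 on rhTM replicate 1, and the lowest was -0.13 on saline replicate 1. Other endothelial lists differed in where rhTM replicate 1 stood. Its sum was the lowest of the 6 for the other general capillary markers (149, against 168 to 207 on the other arrays) and for the ETS, SOXF and T-box factors (64.3, against 67.3 to 79.2). It lay within the range of the others for the pan-endothelial genes (717, with 708 to 780 for saline), though their median centred value was lowest there (-0.14), and was the highest for arterial, venous and lymphatic genes (146, with 100.4 to 116 for saline). Lyve1 made up 87.5 of that sum, and the median centred value of the list was 0.0053 there, inside the range of the other arrays. The part of these cells in the values of rhTM replicate 1 was not tested.

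Pairs of the capillary genes did not rise and fall as one group over the arrays. Of 45 pairs, 23 had a Pearson r above 0 over the 6 arrays, with a median of 0.11. The highest was 0.96 for Calcrl with Ramp2 and the lowest -0.99 for Calcrl with Nos3, and without rhTM replicate 1 these were 0.60 and -0.94. Each of these values shares the 6 arrays and their scaling. The genes most like the mean of the 10, outside all lists, were Hhip, Dclk3, Dph2, Sec22c and Myo5c, with r of 0.993, 0.989, 0.987, 0.987 and 0.986 over 6 arrays. They head a ranking of all genes tested, where so few arrays can give high r without any link. A link to the capillary genes was not tested.

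**Figure D2:**
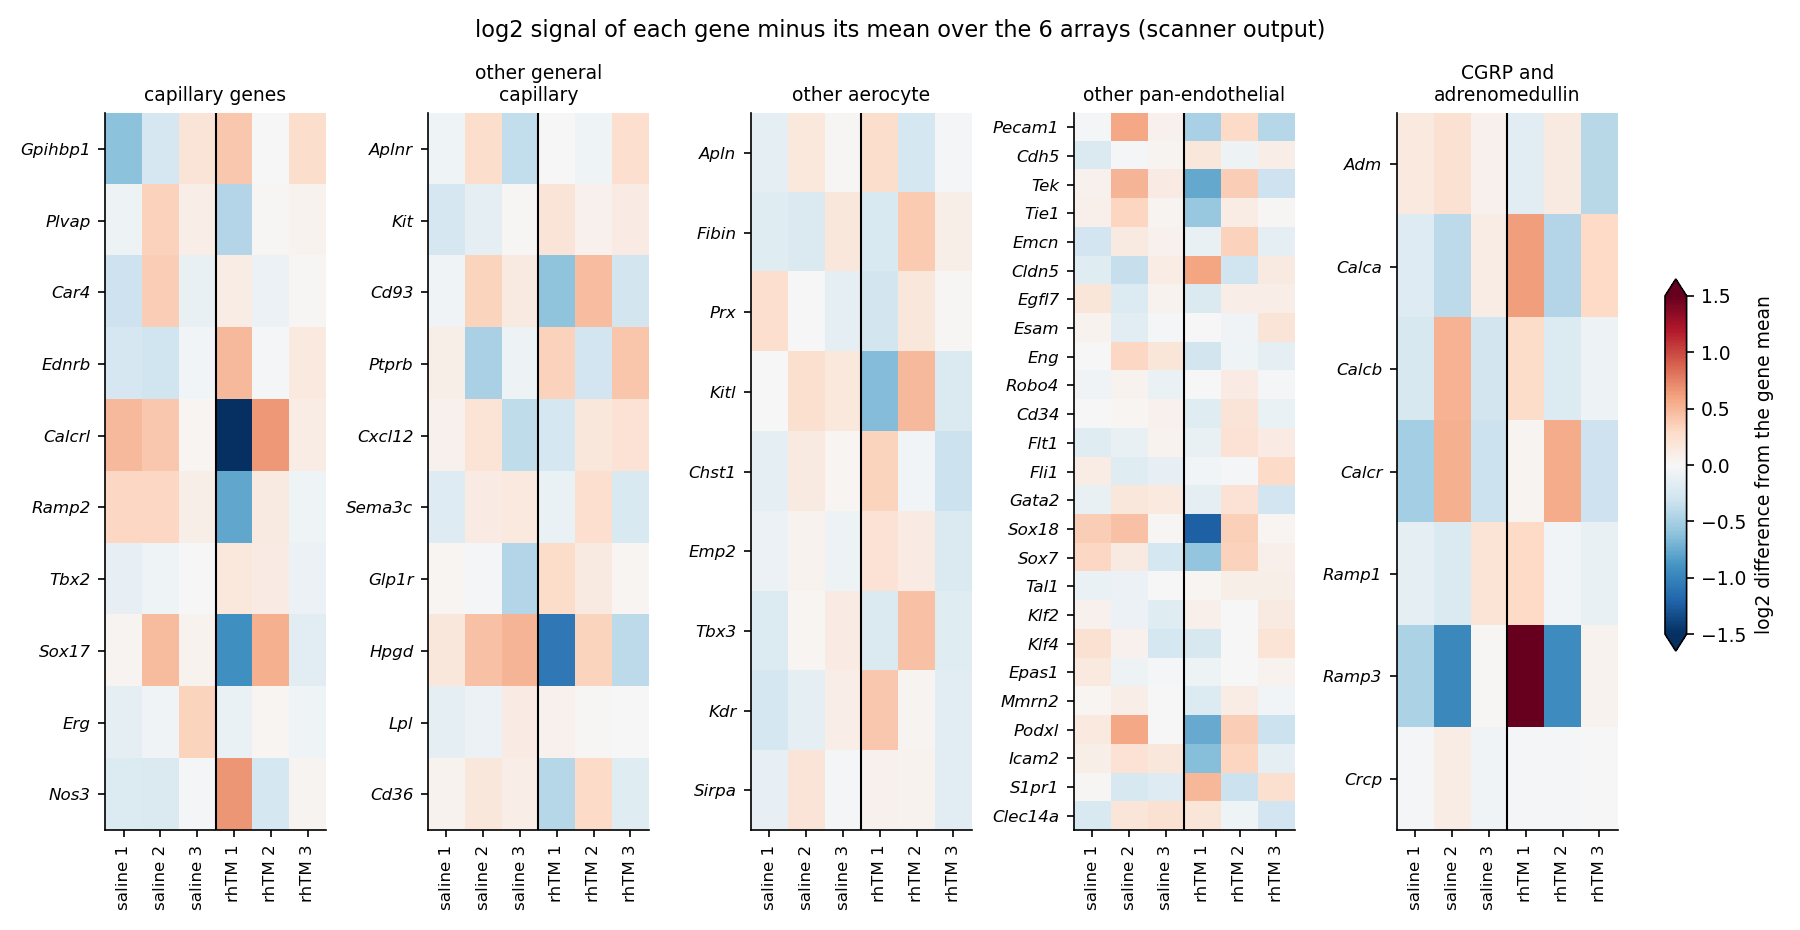
Colour gives the log2 signal of a gene minus its mean over the 6 arrays (red higher, blue lower, colours saturate at 1.5), with 1 column an array and 1 row a gene, for the capillary genes and 4 other lists, and a black line between the groups. The rhTM 1 column holds the deepest blue for Calcrl, Hpgd and Sox18 and the deepest red for Ramp3.

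The counts depended on the assignment of the arrays. With that of the authors' table, 0 of the 10 passed after adjustment (0% of 16320 genes), 3 had a higher mean with rhTM (46% of all genes) and the median log2 difference was -0.16, against -0.02 for all genes. Past an unadjusted 0.05 in limma were 2279 of 16320 genes (14%) and 1 of the 10, Sox17 in place of Ednrb. With 1 array left out of the table in turn these counts ran from 1145 to 4133 of the 16320 genes and from 0 to 3 of the 10. The methods' t-test on the table gave 14 genes past fold and p (0.0858%) and 2067 under 0.05 (12.7%), with 0 of the 10 in either. In 0 of the 10 did all rhTM values lie above all saline values (9.68% of all genes), and in 2, Sox17 and Erg, they lay below (12%). These counts and shares also hold any difference between the 2 slides described below, since the table sets rhTM arrays alone on slide 2. The sign was the same by both sources for 8 of the 10, Car4 and Tbx2 being the exceptions. No gene can separate the groups by both sources, since that would need the value of saline replicate 1 to lie both above and below that of rhTM replicate 2.

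**Figure D3:**
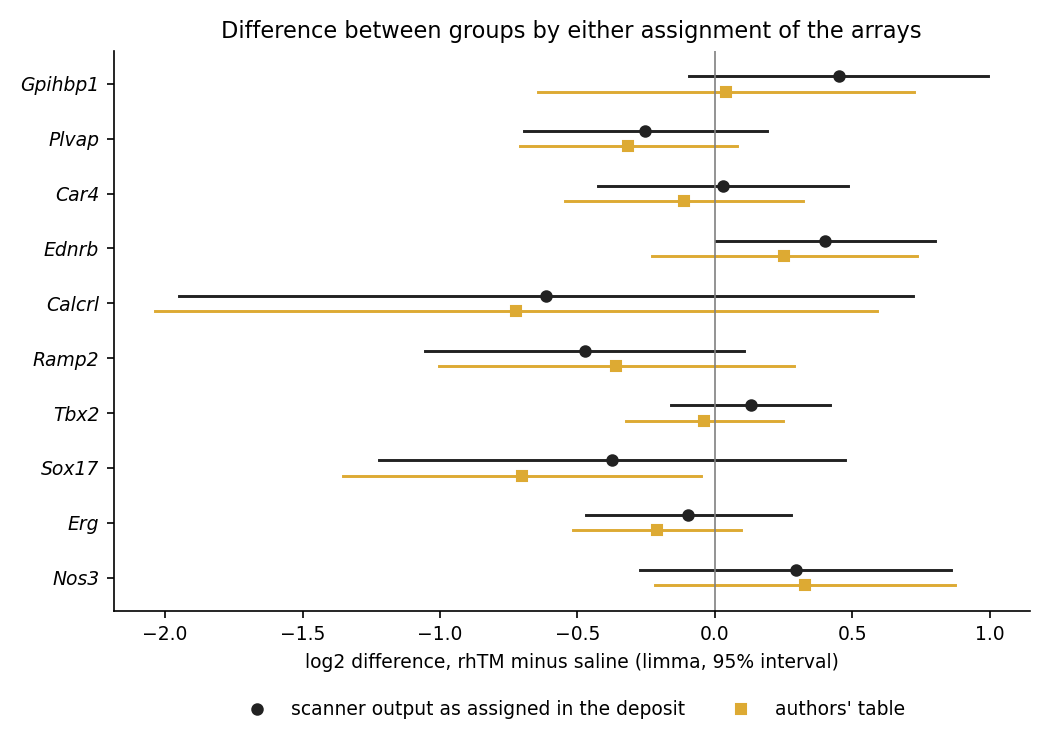
Log2 difference between rhTM-treated and saline-treated lungs for each capillary gene (x axis) with its limma 95% interval, by the scanner output (black) and by the authors' table (yellow). The interval leaves 0 outside for Ednrb by the scanner output, with its low end at 0.0044, and for Sox17 by the table.

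The arrays lay on 2 slides, each scanned at its own time. In the scanner files, slide 2 carried saline replicate 1 with rhTM replicate 3, and the other 4 arrays were on slide 1. Within slide 1 the log2 differences were 0.23 for Gpihbp1, 0.40 for Ednrb, -0.73 for Calcrl, -0.52 for Ramp2, -0.46 for Sox17 and 0.31 for Nos3. Within slide 2, with 1 array a group and no test, they were 0.88, 0.41, -0.37, -0.38, -0.20 and 0.26 in the same order. These 6 genes and Tbx2 (0.18 and 0.03) had the same sign in both slides. Plvap (-0.44 and 0.12), Car4 (-0.12 and 0.33) and Erg (-0.18 and 0.08) did not. Within slide 1 the sign for Calcrl, Sox17 and Nos3 came from rhTM replicate 1 alone. There rhTM replicate 2 lay on the other side of both saline arrays. It measured 4.83 against 4.60 and 4.22 for Calcrl, 0.77 against 0.71 and 0.29 for Sox17, and 2.56 against 2.61 and 2.81 for Nos3.

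In the table's assignment slide 2 holds rhTM arrays alone, and all 3 saline arrays lie on slide 1. Every difference by the table therefore also holds any difference between the slides, which cannot be told apart from that of treatment. A fit with the slide as a block then sets rhTM replicate 1 alone against the 3 saline arrays. That fit gave -2.04 for Calcrl and -1.27 for Sox17. It measures the distance of 1 lung from the controls, the same array that gave the lowest Calcrl and Sox17 values above.

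Lists of other endothelial genes and of other lung cells are set beside the capillary genes by their medians. Of the 25 other pan-endothelial genes, 10 had higher means with rhTM and 15 lower (median -0.02, and -0.14 by the authors' table), with S1pr1, a barrier receptor, highest at 0.28 and Sox18 lowest at -0.55. Of 18 genes of arterial, venous and lymphatic endothelium, 10 had higher means (median 0.02), from -0.34 for the gap junction gene Gja5 to 0.46 for Lyve1. Lyve1 was listed as a lymphatic gene, and its cell of origin in whole lung was not tested. No gene of any list passed the test in the scanner output. Of the medians of these 19 lists, 9 changed sign from the scanner output to the table and 17 did so when 1 array or another was left out of the scanner output. The list of type 1 alveolar cells kept its sign in each of these cases and with each array left out of the table. That of pericytes and smooth muscle turned once, to -0.054 by the table without saline replicate 3.

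**Figure D4:**
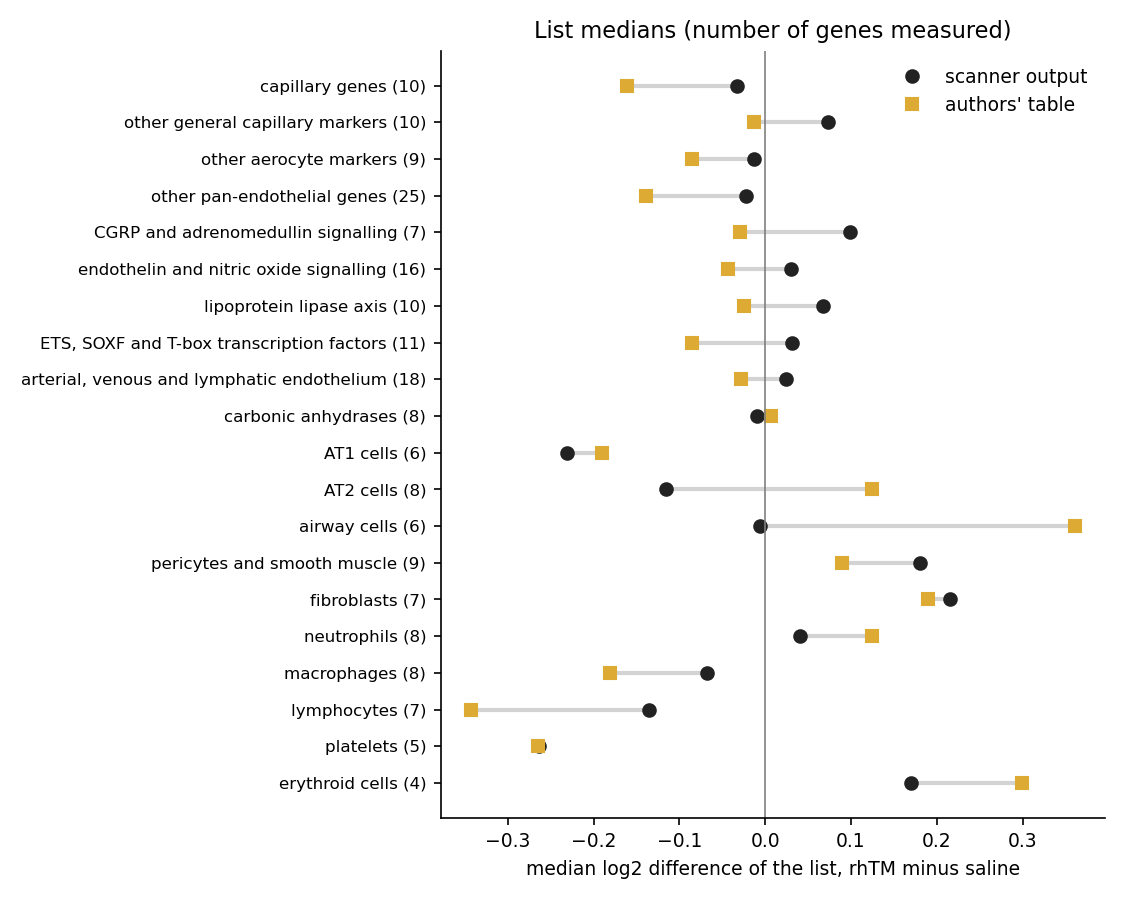
Median log2 difference, rhTM minus saline, of each list (x axis) by the scanner output (circles) and by the authors' table (squares), with the number of genes measured in brackets. For the capillary genes the medians are -0.03 and -0.16, and that of the other pan-endothelial genes -0.02 and -0.14.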

How the data were processed

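Agilent SurePrint G3 Mouse arrays, read in 1 colour, measured the lungs of 3 saline-treated and 3 rhTM-treated mice, each on its own array, and samples were grouped by their labels. The authors deposited scanner output whose processed signal is an intensity, corrected for background and detrended within each array. Its headers name Feature Extraction 10.7.3.1, and the submitters' processing notes name version 9.1. The authors also deposited a table of the same intensity values, averaged per probe and unscaled (column medians 77.5 to 90.9). The paper's general methods name PBS as the control where its microarray methods name saline.

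Control and outlier-flagged spots were left out, which dropped 398 of 56605 probes, and spots of a probe were averaged. The log2 intensity was scaled by the 75th percentile of each array. Accessions of probes were matched, without versions, to a RefSeq gene table of GRCm38.p6 (32994 probes, 22911 genes). The array was designed on another build, so probe coordinates are not given. A probe had to be well above background on every array of one group or the other (36061 probes), and the brightest stood for its gene (16370 genes, 16320 by the table). Differences came from limma 3.58.1 in R 4.3.3 (lmFit, eBayes) at a threshold of 0.05 after the Benjamini-Hochberg adjustment over all genes, and single genes also by an exact permutation test. Fits were tested on simulated data. The number of arrays limits precision.

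The capillary genes and all lists were chosen with earlier results of these data known. Named were the 10 genes, the highest and lowest gene of every other list, list genes that separated the groups in 1 direction by both sources (which the exchange of columns makes impossible), the 5 genes most like the mean of the 10, and pathway partners. The highest gene of 1 list is not reported here. Alternatives were normexp (offset 50, on median spot signals, since the files hold no mean signals) with quantile normalization, other scalings, the authors' table, other filters, the slide and the replicate number as blocks, averaged probes per gene, leaving out each array and the methods' t-test.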

Additional observations from a re-analysis of the deposited data

How the results depend on the processing

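Of the 10 capillary genes, 0 passed the adjusted threshold under any alternative but the table fitted with a slide block (2 genes, with 187 of all genes higher and 245 lower). The number of capillary genes with all rhTM values above all saline values was 0, in place of 1, with the 75th percentile of the probes detected on all arrays, without scaling, with the mean of a gene's probes, and by the table with or without the slide, where 2 had all rhTM values below. From the table, 3 genes had higher means. Car4 turned to -0.0032 without scaling, -0.11 by the table, -0.062 without both exchanged arrays and -0.12 within slide 1. Tbx2 turned to -0.038 by the table, and Plvap to 0.12 and Erg to 0.078 within slide 2. Over all alternatives and left-out arrays, the difference of a single capillary gene kept its direction and its side of the threshold 249 times, changed direction 23 times and passed the threshold 2 times. The cause of these changes was not tested.

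With each array left out in turn, the scanner output gave 4 to 5 capillary genes with higher means, a median log2 difference from -0.15 to 0.02, 0 genes past the threshold, and for single genes Calcrl -1.09 to 0.070, Car4 -0.12 to 0.22, Ednrb 0.26 to 0.52, Erg -0.19 to 0.049, Gpihbp1 0.25 to 0.66, Nos3 0.04 to 0.50, Plvap -0.35 to -0.09, Ramp2 -0.66 to -0.20, Sox17 -0.73 to -0.0060 and Tbx2 0.08 to 0.21. The table gave 2 to 5 genes with higher means, a median from -0.22 to -0.09, Gpihbp1 -0.15 to 0.36, Car4 -0.20 to 0.04, Tbx2 -0.13 to 0.017, Sox17 -0.90 to -0.42, Calcrl -1.14 to -0.065, Ednrb 0.073 to 0.44, Erg -0.29 to -0.094, Nos3 0.082 to 0.52, Plvap -0.42 to -0.17, Ramp2 -0.60 to -0.058, and 0 to 443 of all genes higher and 0 to 118 lower. Among these, Gpihbp1 was -0.078 without saline replicate 2 and -0.083 without rhTM replicate 3, and Tbx2 -0.080 without saline replicate 2, -0.051 without saline replicate 3 and -0.0028 without rhTM replicate 3. The highest counts came without rhTM replicate 1, and no capillary gene was among them.

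Replicate numbers are shared by the groups, but same-numbered samples deviated together with r = -0.30, 0.44 and -0.45, so they share only a number. With the replicate block 0 capillary genes and 0 of all genes passed, 377 genes were past an unadjusted 0.05, and Ednrb stayed at 0.40 (unadjusted p = 0.069 in limma, adjusted 0.9999). Signal over background limits none of the probes that stand for the 10 genes.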

Other observations

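Markers of other lung cells were described in the same way, with no gene past the test in any list (limma adjusted p = 0.9999 for each gene named). Of 9 genes of pericytes and smooth muscle, which wrap or neighbour the capillaries, 6 had higher means with rhTM, with a median log2 difference of 0.18. Rgs5, a pericyte marker, measured -2.73, -2.94 and -2.64 with saline and -1.84, -1.56 and -0.997 with rhTM, without overlap and with a difference of 1.30. In the authors' table it was 0.53 and the groups overlapped. Acta2, the smooth muscle actin, had the lowest difference of that list at -0.35, which turned to 0.089 in the table. Of 7 fibroblast genes, 6 had higher means (median 0.22), from -0.12 for Dcn to 0.37 for Lum. Dcn was 0.49 in the table, and the median of the list turned to -0.072 without rhTM replicate 3.

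Of 6 markers of type 1 alveolar cells, 5 had lower means (median -0.23), from -0.67 for Cav1 to 0.17 for the water channel Aqp5, and of 8 of type 2 cells 7 had lower means (median -0.12), from -0.47 for the phosphate carrier Slc34a2 to 0.15 for the surfactant protein Sftpd. From the table the median of the type 2 list turned to 0.12. The airway list had a median of -0.0055, from -0.27 for Cyp2f2 to 0.16 for Foxj1. In the table the median was 0.36, Cyp2f2 turned to 0.38 and Foxj1 was 0.77.

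Among blood cells, the median was 0.04 for neutrophils (Ltf -0.31, Camp 0.49), -0.07 for macrophages (Csf1r -0.25, Marco 0.16), -0.14 for lymphocytes (lowest Nkg7 -0.31), -0.26 for platelets (Gp1ba -0.65, Pf4 0.47) and 0.17 for erythroid cells (Hba-a1 0.01, Slc4a1 0.39). The table turned Ltf to 0.046 and Marco to -0.17. With each array left out of the scanner output in turn these medians ran from -0.038 to 0.080 for neutrophils, from -0.12 to 0.025 for macrophages, from -0.19 to 0.064 for lymphocytes, from -0.64 to 0.17 for platelets and from -0.12 to 0.45 for erythroid cells, so that the sign of each changed. For platelets and erythroid cells the lowest value came without rhTM replicate 1 and the highest without rhTM replicate 3.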
